A study of Mus musculus with 2 samples.

Results

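The genes described here are the nuclear genes of respiratory complexes II, III and V. They were chosen by symbol, as those starting Sdh, Uqc or Atp5 together with Cyc1, Cycs and Bcs1l, leaving out names with -ps and genes with no protein-coding transcript. The rule found 40 gene identifiers under 39 symbols, of 55536 annotated genes. They comprise 30 identifiers of structural subunits, 8 assembly factors, cytochrome c (Cycs) and Atp5s. The name "subunits" does not cover the assembly factors, and the rule misses Usmg5, a subunit of complex V listed under an older symbol.

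Total RNA of the gastrocnemius, the large calf muscle, was sequenced after reduction of ribosomal RNA from 2 female B6CASTF1/J mice aged 2 months, which carry 1 B6 and 1 CAST genome. No treatment or engineered allele is named, and the mice form 1 group of 2 biological replicates, called animal 2 and animal 1 here after their replicate numbers. The labels give both the same donor record, so the spread between the libraries may be technical. Each library came with a pair of deposited quantifications of GENCODE M21 genes on mm10. The first, made from a transcriptome alignment, is used unless stated, and the second was made from the reads. Levels are given as TPM, a relative transcript abundance that corrects for length and depth. With 1 library on each side no test was possible: values are means ± SD (n = 2), and intervals are exact 95% binomial intervals that cover counting error only.

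Complex II (succinate dehydrogenase) passes electrons from succinate to ubiquinone and is also an enzyme of the citric acid cycle. Complex III passes them from ubiquinol to cytochrome c while pumping protons, and complex V (ATP synthase) uses the proton gradient to make ATP, with a catalytic F1 head, a rotating ring of c subunits and a stalk that holds the head still. All subunits of complex II are coded in the nucleus, whereas mitochondrial DNA codes for 1 subunit of complex III and a pair of complex V.

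The libraries held 47956841 expected reads in animal 2 and 45231388 in animal 1. The 6 marker genes of skeletal muscle fibres summed to 60071 and 62524 TPM in animals 2 and 1. None of 5 heart markers or 3 brown fat markers reached 1 TPM in both animals. Some other lists differed more between the libraries. All 8 slow-fibre markers were past 1.5-fold higher in animal 2 (a sum of 3980 TPM in animal 2 and 929 TPM in animal 1), against 5.54% of all genes tested. All 6 white fat markers (35.1 and 579 TPM in animals 2 and 1) and all 6 Schwann cell markers (33.0 and 245 TPM) were past it in the other direction, as were 11.6% of all genes tested. In bulk tissue, fewer cells of a type and less RNA per cell cannot be told apart.

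Nearly every gene was detected, and most subunits were abundant. In the first gene table, 39 of the 40 identifiers had 1 TPM or more in both animals, against 46.5% of 22015 nuclear protein-coding genes, and 30 were among the 1000 highest of these. The median over the 40 was 287 TPM, against 0.785 TPM over the coding genes. The genes together held 3.31% of nuclear protein-coding TPM in animal 2 and 2.97% in animal 1. The subunits of complex V held 1.95 ± 0.141%, those of complex III 0.839 ± 0.0584% and those of complex II 0.266 ± 0.0325%. Of the 30 subunit identifiers, 28 had 100 TPM or more. The exceptions were Atp5g2 and a second Atp5o identifier (ENSMUSG00000116933.1, chr16:91684398-91926982 on the minus strand), which runs across Donson and was without a read in both animals and both tables.

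Levels within complex II were close to each other. Sdha, the flavoprotein that oxidises succinate, had 279 and 244 TPM in animals 2 and 1. Sdhb, the iron-sulphur subunit (chr4:140961203-140979193), had 322 and 268 TPM in animals 2 and 1. Sdhc and Sdhd anchor the enzyme in the membrane. Sdhc was the highest, at 326 and 279 TPM in animals 2 and 1, and Sdhd the lowest, at 150 and 133 TPM. The TPM ratio of Sdhc to Sdhd was 2.13 ± 0.0455, but 1.28 in the second table, so the size of this gap depends on the quantification. The rank of Sdhc does too, since in the second table Sdhb (498 TPM) and Sdha (350.2 TPM) stood above Sdhc (240.0 TPM).

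The assembly factors of complex II were much lower, at a median of 11.9 TPM. Sdhaf2, which attaches FAD to Sdha, had 22.6 and 21.7 TPM in animals 2 and 1. Sdhaf4, which binds the flavinated Sdha, had 20.2 and 21.97 TPM, so the order of these genes differed between the animals. Sdhaf1 and Sdhaf3 help insert iron-sulphur clusters into Sdhb. Sdhaf1 averaged 2.68 ± 0.297 TPM, and Sdhaf3 was the lowest detected gene of all, at 2.38 and 2.15 TPM in animals 2 and 1.

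Complex III subunits had a median of 367 TPM and spanned 2.79-fold. Uqcrq, a small subunit beside cytochrome b, was the highest at 608 and 574 TPM in animals 2 and 1. Cyc1 (cytochrome c1), the haem subunit that reduces cytochrome c, had 227 and 197 TPM in animals 2 and 1 and was the lowest by its mean, nearly level with Uqcrc2. In the second table Uqcrfs1 was the lowest, at a mean of 312 TPM. The core proteins Uqcrc1 and Uqcrc2 averaged 397 ± 37.7 and 212 ± 22.8 TPM, and Uqcrfs1, the Rieske iron-sulphur protein, 222 ± 23.7 TPM. The small subunits Uqcr10, Uqcrb, Uqcr11 and Uqcrh averaged between 347 TPM for Uqcrh and 415 TPM for Uqcr10, with Uqcrb at 399.8 and Uqcr11 at 367 TPM. Among the assembly factors, Uqcc2 was the highest at 152 and 145 TPM in animals 2 and 1, and Bcs1l, which inserts the Rieske protein, the lowest at 9.38 and 8.98 TPM. Uqcc1, the partner of Uqcc2 in the making of cytochrome b, averaged 64.5 ± 9.20 TPM and Uqcc3 20.3 ± 1.21 TPM. Coding transcripts held 9.34% of Uqcc1 TPM in the first table and 68.8% in the second.

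Complex V held the highest gene and the widest range. Atp5b, the catalytic beta subunit (chr10:128083273-128090391), had 1612 and 1496 TPM in animals 2 and 1. Atp5a1, the alpha subunit that alternates with beta in the head, had 826 and 776 TPM in animals 2 and 1. The ratio of beta to alpha was 1.94 ± 0.0168 and 1.90 in the second table, over all transcripts of each gene. Coding transcripts held 74.1% of Atp5b TPM in the first table and 71.4% in the second. For Atp5a1 they held 98.6% and 91.8%. A ratio over coding transcripts alone was not computed. The proteins occur in equal numbers in the enzyme. The central stalk subunits were lower in the first table. Atp5e (epsilon) averaged 457 ± 27.7 TPM, Atp5c1 (gamma) 347 ± 11.5 TPM and Atp5d (delta), the lowest, had 260 and 237 TPM in animals 2 and 1. In the second table Atp5e, at 1386 TPM, was above Atp5a1, at 1232 TPM. In the peripheral stalk, Atp5j (factor 6) had 497 and 459 TPM in animals 2 and 1, and Atp5o (the oligomycin sensitivity protein) 496 and 449.6 TPM. The second table had them in the other order, at 807 TPM for Atp5j and 842 TPM for Atp5o. Atp5f1 (subunit b) was the lowest at 296 and 261 TPM, with Atp5h (subunit d) at 333 ± 14.2 TPM. The means of the 4 supernumerary subunits lay within 1.24-fold of each other in the first table, but between 359 TPM for Atp5k and 737 TPM for Atp5j2 in the second. Atp5l (subunit g) had 336 TPM in animal 2 and 334 TPM in animal 1, Atp5j2 (subunit f) 275 and 264 TPM, while Atp5k (subunit e) averaged 307 ± 47.9 TPM and Atp5mpl (a small proteolipid) 309 ± 5.67 TPM. Atp5s, known as coupling factor B and not a subunit, had 8.74 and 7.74 TPM in animals 2 and 1. Usmg5 stood in the range of the subunits, at 517 and 500.1 TPM in animals 2 and 1.

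**Figure D1:**
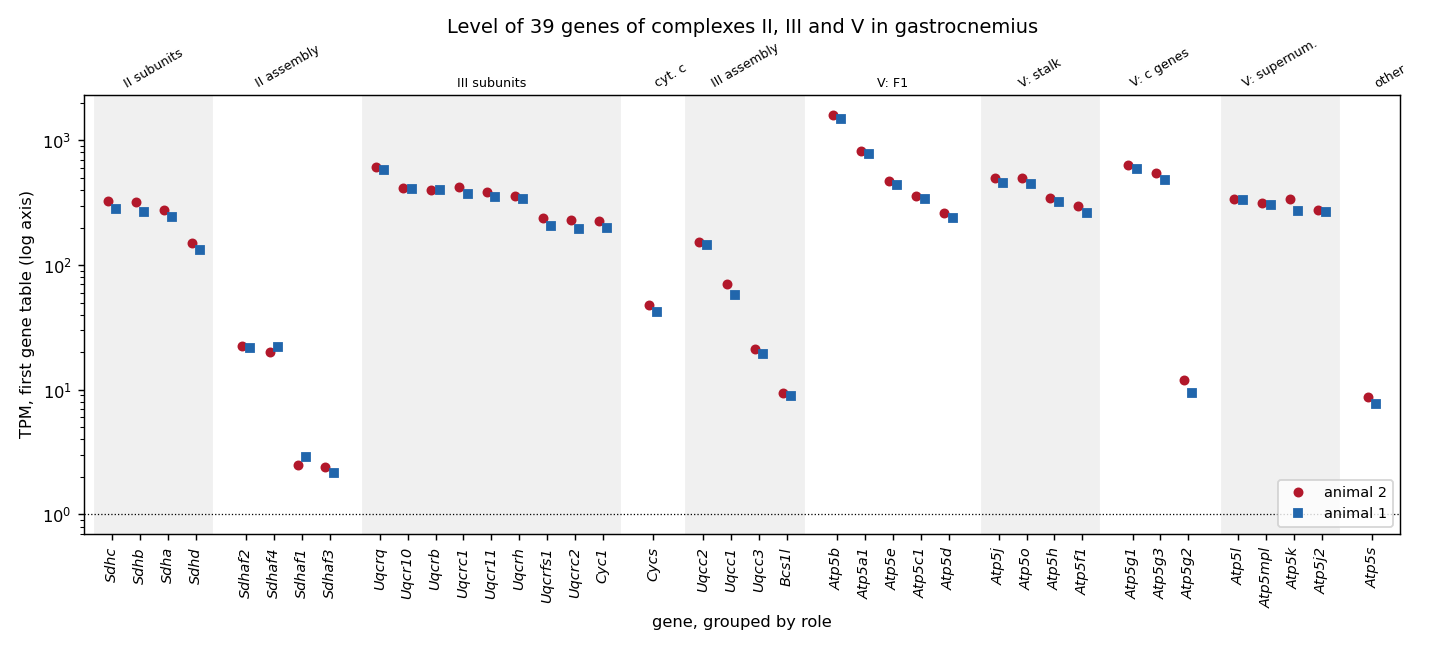
TPM of the 39 detected genes on a log axis, grouped by role and sorted within each role, with circles for animal 2, squares for animal 1 and a dotted line at 1 TPM. Subunits lie above 100 TPM apart from Atp5g2, and the 8 assembly factors, Cycs and Atp5s lie below them apart from Uqcc2, which passes Sdhd.

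The c subunit is coded by 3 genes whose precursors differ in the targeting peptide that is cut off and end in the same mature protein. The last 78 residues were identical in all 3 translations, while the bases coding for them were 84.6% identical between Atp5g1 and Atp5g2, 79.07% between Atp5g1 and Atp5g3 over their longer shared end of 86 residues, and 77.4% between Atp5g2 and Atp5g3. The first 90 bases of the shared coding end (GENCODE M21) are shown because they let reads of the 3 genes be told apart. Capitals mark the bases that are not the same in all 3.
Atp5g1: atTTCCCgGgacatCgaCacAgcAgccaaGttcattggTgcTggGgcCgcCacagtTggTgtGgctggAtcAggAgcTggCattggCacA
Atp5g2: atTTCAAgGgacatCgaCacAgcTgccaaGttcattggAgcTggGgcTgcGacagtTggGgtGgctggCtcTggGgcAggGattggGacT
Atp5g3: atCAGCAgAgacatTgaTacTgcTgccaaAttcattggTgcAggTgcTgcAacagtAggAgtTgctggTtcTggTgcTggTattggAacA
Atp5g1 (chr11:96068852-96075670) had 640.2 and 587 TPM in animals 2 and 1, and Atp5g3 (chr2:73908447-73911326) had 550.4 and 483 TPM. Atp5g2 (chr15:102662864-102672352) was listed at 11.9 and 9.37 TPM in animals 2 and 1. Of c-subunit TPM, Atp5g1 held 53.8 ± 0.803%, Atp5g3 45.3 ± 0.718% and Atp5g2 0.928 ± 0.0853%. The order of Atp5g1 and Atp5g3 turned round in shares of expected counts (48.9% and 50.03%) and in the second table (39.1% and 43.3%), and the level of Atp5g2 depended on how reads were split between it and a copy, as follows.

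Atp5g2 shares all 645 nt of Gm10175, a transcribed processed pseudogene (chr7:23946646-23947290), with its leading transcript of 731 nt. The start of the Atp5g2 coding sequence is shown, with no base in capitals since Gm10175 has the same 90 bases.
Atp5g2 coding start: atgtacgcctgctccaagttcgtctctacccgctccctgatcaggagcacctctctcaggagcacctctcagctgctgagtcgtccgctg
In the second table Atp5g2 held 4119 reads in animal 2 and 3950 in animal 1, and Gm10175 held 0. The first table gave Atp5g2 299 and 222 reads in animals 2 and 1, where its count in animal 2 carried a posterior SD of 55.1, and Gm10175 4571 and 4275. Summed over the sequences that share runs of 100 nt, the reads were 4119 and 3950 in the second table against 4870 and 4497 in the first. Over the same sum Atp5g2 stood at 319 TPM in the second table and 219 ± 2.52 TPM in the first. The tables disagree on which locus the reads belong to, and the shared bases do not settle it.

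Cytochrome c, the soluble carrier between complexes III and IV, has several such copies, of which Gm10053 held reads in both tables and Gm10108 in the first only. Gm10053, annotated as protein-coding (chr19:24875686-24876631), matched the coding transcript of Cycs at 945 of 946 nt. Gm10108, a processed pseudogene (chr5:13121448-13121766), matched at 317 of 319 nt. The stretch that holds both differences from Gm10108 is shown with the differing bases in capitals.
Cycs coding start: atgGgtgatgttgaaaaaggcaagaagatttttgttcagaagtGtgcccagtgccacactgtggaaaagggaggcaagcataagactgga
Gm10108, same stretch: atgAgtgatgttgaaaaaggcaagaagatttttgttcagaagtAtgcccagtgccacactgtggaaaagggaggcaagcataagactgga
Cycs (chr6:50562563-50566538) had 48.01 TPM in animal 2 and 41.7 TPM in animal 1 in the first table, against a mean of 557 TPM in the second. Its own reads were 10299 and 8679 in animals 2 and 1 in the second table, against 5647 and 4601 in the first. The sums over Cycs and its copies were close, at 14985 and 12941 reads in the second table and 14493 and 12556 in the first. Beside the reads, the transcript they were given to differed: Cycs-201, a retained-intron form of 607 nt, held 89.7% of Cycs TPM in the second table and 3.48% in the first, where the coding Cycs-202 of 3123 nt held 96.5%. The TPM ratio of Cyc1 to Cycs was accordingly 0.868 in the second table and 4.73 in the first, so these files give no settled order for these genes.

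For Atp5h, Atp5l, Atp5g1 and the main Atp5o identifier, the copies held fewer reads than the gene itself. Runs of 100 nt were shared with another gene by 9 of the 40 identifiers. Gm10250 took 1345 and 1251 reads in animals 2 and 1 beside 6816 and 5955 on Atp5h in the first table, and none in the second. Gm10221, identical over its 309 nt to Atp5l, took 2528 and 2277 reads beside 6214 and 5835 on Atp5l in the first table, and none in the second. With its copies Atp5l stood at 634 TPM in the first table, against 335 TPM alone. Gm10039 took 610 and 559 reads beside 13067 and 11208 on Atp5g1. For Atp5o the direction was the opposite: Gm5436 held 842 and 696 reads in the second table and 212 and 181 in the first.

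**Figure D2:**
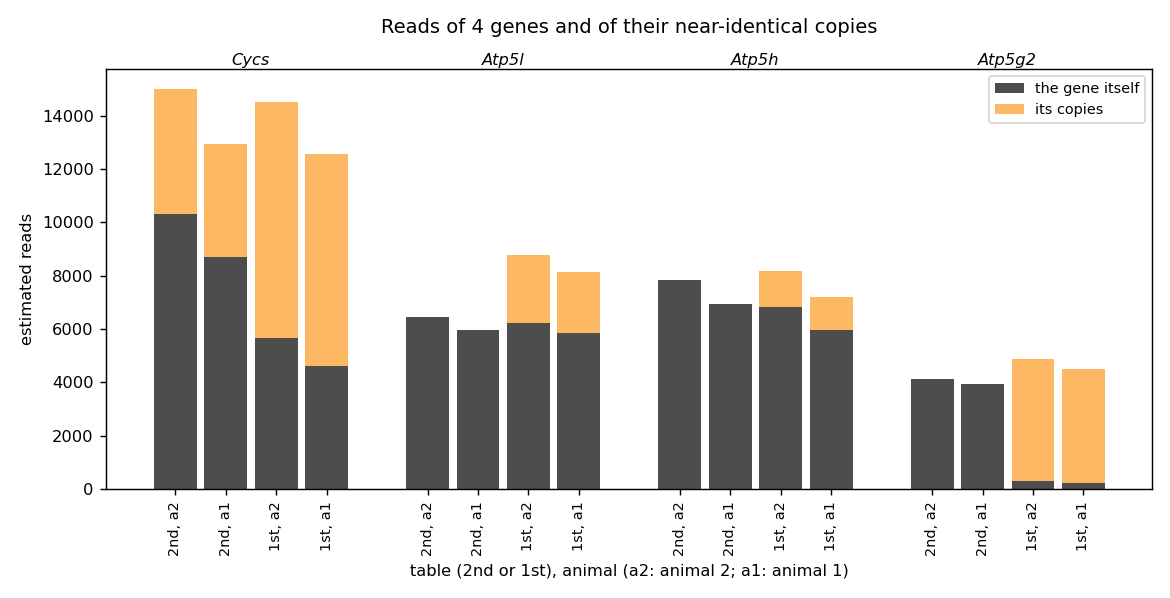
Estimated reads on Cycs, Atp5l, Atp5h and Atp5g2 (dark) and on the genes that share runs of 100 nt with each (light), by deposited table and animal, with bars from 0. For Atp5g2 nearly the whole bar is light in the first table (4571 of 4870 reads in animal 2 on Gm10175) and dark in the second.

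Over all 39 detected genes the second table gave higher TPM for 38, with a median log2 difference of 0.62, near the 0.57 over all genes. Sdhc was the exception, at -0.33. A value 2-fold or more higher was seen for 8 of the 39, against 11.2% of all genes tested, namely Uqcrc2, Cyc1, Cycs, Atp5e, Atp5h, Atp5g2, Atp5j2 and Atp5l. In the second table Uqcrc2 averaged 451 TPM, Cyc1 484 TPM, Atp5e 1386 TPM, Atp5h 769 TPM, Atp5j2 737 TPM and Atp5l 735 TPM. Cycs and Atp5g2 were more than 10-fold higher, which held for 0.319% of all genes tested.

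**Figure D3:**
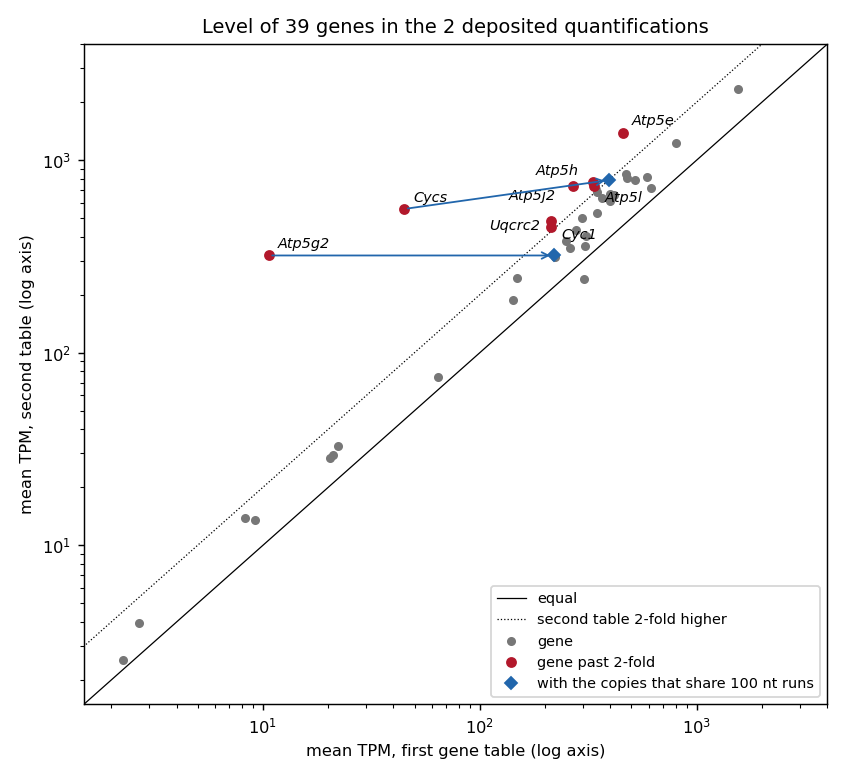
Mean TPM of the 39 detected genes in the second table (vertical) against the first (horizontal), both on log axes, with red for genes past 2-fold and arrows to the sums of Atp5g2 and Cycs with their copies (blue). The summed values move to the dotted 2-fold line or below it, at 319 against 219 TPM for Atp5g2 and 785 against 392 TPM for Cycs.

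Between the animals, most of the genes were slightly higher in animal 2. The log2 ratio, animal 2 over animal 1, of counts scaled by TMM had a median of 0.24, and 37 of 39 genes were higher in animal 2, against 50.6% of the 15709 genes whose mean count was at least 10. Where the mean count was at least 1000, 32 of 32 were higher, against 69.4% of all such genes, whose median was 0.07. None of the 39 was past 1.5-fold, against 17.2% of all genes tested. Each of the 39 had a mean count of at least 100, and 8.04% of all genes at that count were past this fold. The counting interval lay above 0 for 36 genes and spanned 0 for Sdhaf1, Sdhaf4 and Bcs1l. The median was 0.30 for subunits of complex II, 0.24 for complex III, 0.23 for complex V and 0.20 for the assembly factors.

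The highest ratio was that of Atp5g2, at 0.45 (interval 0.20 to 0.71), which rests on the few reads left to it in the first table and was 0.09 in the second. Atp5k followed, with 3753 and 2820 reads in animals 2 and 1 and a ratio of 0.44 (0.37 to 0.51). Uqcc1, with 3443 and 2622 reads in animals 2 and 1, had a ratio of 0.42 (0.34 to 0.49). At the low end stood Sdhaf1, at -0.12 (-0.38 to 0.14) with 236 and 260 reads, Sdhaf4, at -0.012 (-0.20 to 0.17) with 471 and 483 reads, and Atp5l, at 0.12 (0.063 to 0.17). Sdhaf4 was at 0.085 in the second table. Both genes were above 0 when scaled by spike-ins, where all 39 were higher but the median of all genes was itself 0.20. Across the genes, Pearson's r between the ratio and log2 transcript length was 0.092 and Spearman's rho 0.29 (n = 39, genes of the same libraries). The median ratio was 0.23 in genes under 1000 nt and 0.29 in those of 1000 nt or more. Over all coding genes with a mean count of at least 1000 the order was the other way, at 0.13 and 0.067.

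A difference of like size was seen in complex I. All 46 complex I genes (symbols starting Nduf) were higher in animal 2 (median 0.22 on the log2 scale), whereas 81 of 93 ribosomal protein genes were higher with a median of 0.08. The slow-fibre markers had a median log2 ratio of 2.50 and the general list of skeletal muscle fibre markers 0.037. The median was -3.88 for white fat, -3.01 for Schwann cells, -0.53 for macrophages, -0.21 for endothelium, -0.063 for fibroblasts, 0.81 for tenocytes and 0.47 for erythroid cells. The part of any of these cells in the ratio of the respiratory genes was not tested.

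**Figure D4:**
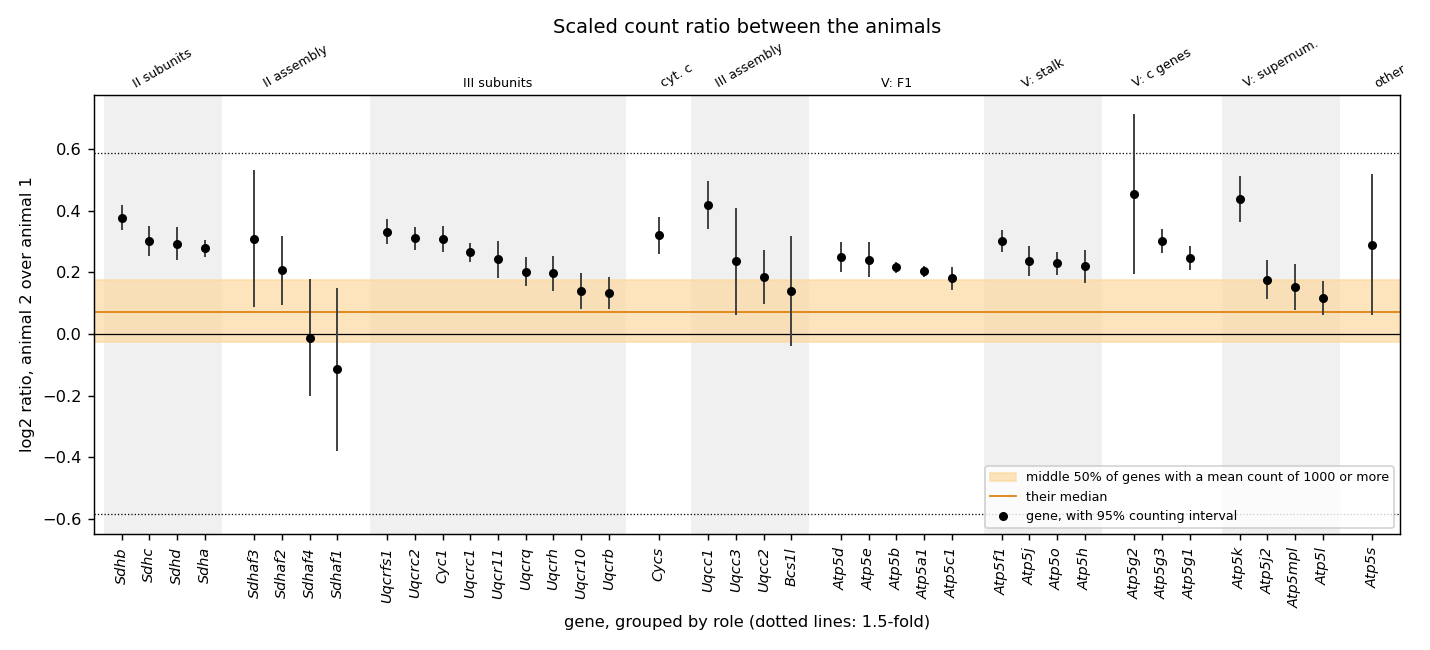
The log2 ratio of scaled counts, animal 2 over animal 1, of 39 genes by role, with bars for exact 95% counting intervals, dotted lines at 1.5-fold and a band for the middle 50% of all genes whose mean count was at least 1000. Most genes lie above the band and none beyond the dotted lines. Only Sdhaf1 and Sdhaf4 lie below 0, and both lie above it under spike-in scaling.

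Of 22 partner symbols of the same pathway, 21 matched the annotation, and the other, Atp5if1, is a second name of the matched Atpif1. In both animals, 20 of the 21 had 1 TPM or more. Of these 20, 18 were higher in animal 2 (median 0.25 on the log2 scale), 1 of them past 1.5-fold. Over all genes tested 50.6% were higher and 5.54% past that fold, so the count past it is near the background. That gene was mt-Atp6, a complex V subunit of mitochondrial DNA, with 6318 TPM in animal 2 and 3931 TPM in animal 1. Its neighbour mt-Atp8 had 6486 and 5526 TPM, and mt-Cytb, the mitochondrial subunit of complex III, 9811 and 9090 TPM. The genes for mt-Atp6 and mt-Atp8 overlap, and the second table listed mt-Atp8 at 0 and mt-Atp6 at 27217 and 24684 TPM in animals 2 and 1, so the split between them is uncertain. Mitochondrial genes also have nuclear copies on chromosome 1. Slc25a4, the muscle form of the carrier that exports ATP, had 1225 and 1114 TPM in animals 2 and 1, against 28.7 and 32.8 TPM for its paralogue Slc25a5. Atpif1, which inhibits complex V when it runs backwards, averaged 21.5 ± 0.0566 TPM. Cyct, the cytochrome c of testis, had 0 reads. Gpd2, which also reduces ubiquinone, was lower in animal 2 at a log2 ratio of -0.22.

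Of the 34 genes at 5 TPM or more with at least 2 annotated transcripts, 30 had a transcript with more than 50% of the gene's TPM in the first table, and 20 had one with more than 90%. In the second table these counts were 29 and 10, and another transcript led in 14 genes. Several of the 14 are small genes. Uqcrh was mostly the coding Uqcrh-202 of 547 nt in the first table (58.03 ± 0.986%), whereas in the second it was nearly all Uqcrh-204, a processed transcript of 579 nt (99.3%). Atp5k was the coding Atp5k-201 of 371 nt in the first table (98.4%) and Atp5k-203, a retained-intron form of 563 nt, in the second (99.08%). Atp5j was the reverse. Its retained-intron Atp5j-208 of 526 nt held 92.3% in the first table and 4.19% in the second, where the coding Atp5j-203 of 680 nt held 83.7%. Effective lengths, by which TPM is computed, were 99 nt shorter than the transcripts in the first table, and 344 nt (animal 2) and 338 nt (animal 1) shorter for long transcripts in the second. The part of this correction in the differences between the tables was not tested. For Atp5f1 the tables were closer, and Atp5f1-203, annotated for nonsense-mediated decay, held 54.9% in the first table and 47.4% in the second.

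**Figure D5:**
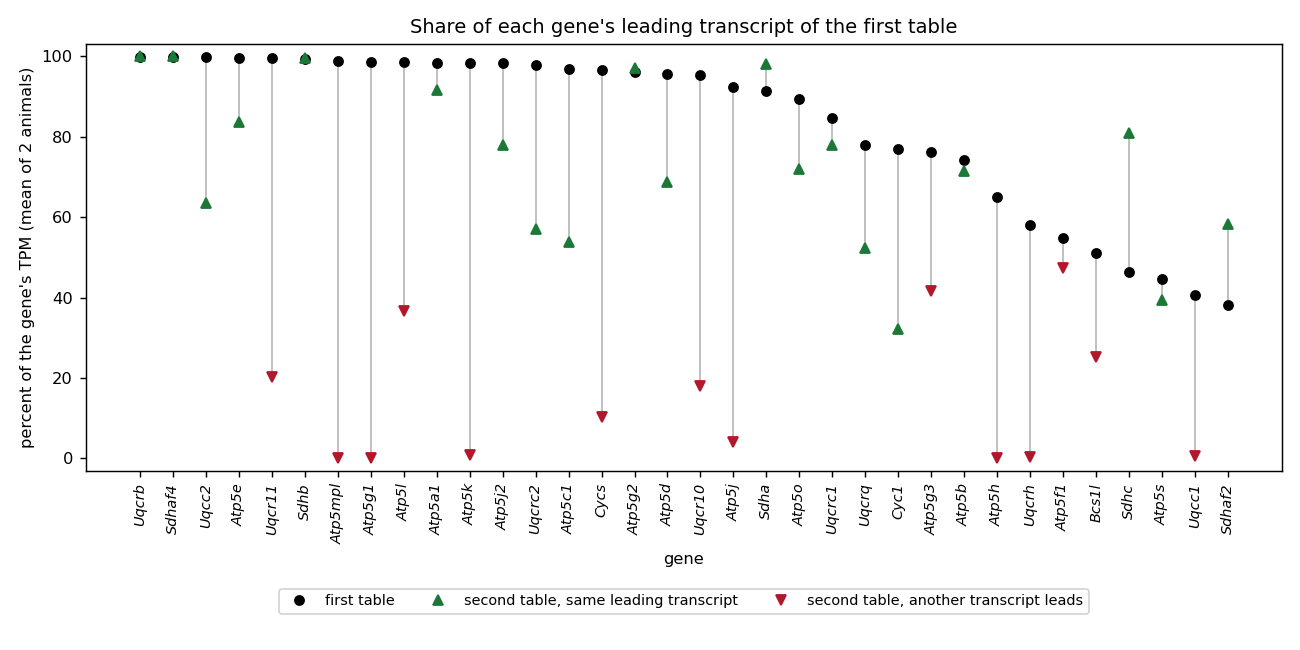
Percent of each gene's TPM held by its leading transcript of the first table, as the mean of both animals, in 34 genes, with black circles for the first table and triangles for the same transcript in the second. Red triangles mark the 14 genes in which the second table has another leader, among them Uqcrh, Atp5k and Atp5j at under 5%.

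Atp5c1 held a transcript choice on which both tables came close to each other. The gamma subunit gene is known to skip an exon near its end in muscle. The annotation has such an exon of 37 nt (chr2:10056770-10056806, minus strand, mm10), and 3 of its 7 transcripts reach past it. Atp5c1-201, which lacks it, held 98.0% of the TPM of those 3 in animal 2 and 96.8% in animal 1 in the first table (mean 97.4 ± 0.845%), and 98.0% and 95.3% in the second. The first table gave Atp5c1-201 345.9 and 326 TPM in animals 2 and 1, and Atp5c1-203, which has the exon, 6.51 and 9.90 TPM. Those 3 transcripts held 99.2% of the gene's TPM in the first table but 55.7% in the second, so the share says nothing of the rest. The ends of both coding sequences are shown, with the bases after the junction in capitals up to the stop codon.
Atp5c1 with the exon: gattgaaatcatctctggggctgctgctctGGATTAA
Atp5c1 without the exon: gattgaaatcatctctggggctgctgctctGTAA
With the exon, 7 exon bases with the stop codon are coding and its remaining 30 nt lie after the stop. Without it, 4 bases of the next exon end the frame. The predicted proteins have 298 residues with the exon and 297 without, so they differ at the carboxyl end.

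Known regulators of respiratory genes bind short motifs near their starts, among them NRF1, ETS-family factors such as GABP, ERR receptors, CREB and YY1. RefSeq promoters (GRCm38.p6, 250 bases before to 50 after a start) were matched for 32 of 39 symbols and not for Atp5a1, Atp5mpl, Cyc1, Sdhc, Uqcrb, Uqcrc2 and Uqcrq. On either strand, the NRF1 core GCATGCGC was present for 7 of 32 genes (21.9%), against 2.71% of 32851 promoters, and the ETS core CCGGAAG for 13 (40.6%), against 8.86%. The CRE TGACGTCA was present for 2 (6.25%), against 1.79%, the ERR element TCAAGGTCA for 2 (6.25%), against 0.423%, the YY1 core AAGATGGC for 4 (12.5%), against 2.75%, and CCAAT for 17 (53.1%), against 37.4%. A gene was counted if any of its promoters had the motif (35 promoters for the 32 genes), whereas the background is per promoter. Base composition was not matched, and a match does not show binding. The NRF1 core was found for Atp5g2, Atp5k, Atp5l, Cycs, Sdhb, Uqcr11 and Uqcrc1. In that order their log2 ratios, animal 2 over animal 1, were 0.45, 0.44, 0.12, 0.32, 0.38, 0.24 and 0.265. The median over the 39 genes was 0.24, and a link between motif and ratio was not tested. The 250 bases before the RefSeq starts of Cycs and Sdhb are shown as the examples with these motifs. For Cycs (chr6:50566570-50566819, minus strand) the CRE and the NRF1 core are in capitals. For Sdhb (chr4:140961021-140961270, plus strand) the NRF1 core is in capitals. GENCODE starts Sdhb at 140961203, so the end of its stretch, with the NRF1 core, lies inside the gene as annotated there. The ETS core counted for Sdhb lies outside the printed bases.
Cycs promoter: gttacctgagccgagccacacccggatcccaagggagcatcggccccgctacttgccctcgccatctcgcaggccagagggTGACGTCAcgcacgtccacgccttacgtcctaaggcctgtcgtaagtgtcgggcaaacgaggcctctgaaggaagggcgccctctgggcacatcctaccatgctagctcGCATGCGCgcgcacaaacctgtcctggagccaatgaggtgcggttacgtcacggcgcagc
Sdhb promoter: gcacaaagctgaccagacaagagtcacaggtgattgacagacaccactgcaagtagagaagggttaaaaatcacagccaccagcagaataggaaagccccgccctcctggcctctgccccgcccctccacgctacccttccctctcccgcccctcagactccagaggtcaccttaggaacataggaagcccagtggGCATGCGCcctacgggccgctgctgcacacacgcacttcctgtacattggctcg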

How the data were processed

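Total RNA libraries of gastrocnemius used 300 ng of RNA each and carried ERCC spike-ins, per the labels' protocols. Expected counts, TPM and each transcript's percent of its gene were deposited by the authors in the layout of RSEM (first tables). Estimated counts and TPM were deposited in the layout of kallisto (second table), per the file headers. Build and annotation are mm10 and GENCODE M21, per the labels and deposited lists. For aligner, quantifier and strand setting: not given in the sources used here. CAST reads may be lost on mm10, which was not analysed here.

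Expected counts were rounded and scaled with TMM factors (edgeR 4.0.16, R 4.3.3) over annotated genes, without spike-ins and 26248 unnamed rows (5 reads in animal 2 and 3 in animal 1, 1.04e-05% and 6.63e-06%). Ratios used a prior count of 0.5 and needed a mean count of at least 10. At these depths 3 reads on 1000 nt come to 0.0832 and 0.0885 TPM in animals 2 and 1. Copies were found as shared runs of 100 nt in GENCODE transcripts. The scaling and ratio steps were tested on simulated counts, with changes larger than the median ratio of these genes. The other steps were not tested in this way. Alternatives were DESeq2 1.42.0 size factors, library size, spike-ins, prior count 5, other filters and detection limits, nuclear coding TPM, the second table and each library left out.

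The genes, lists and rule for named genes were chosen with earlier results of these data known. The rule gives every gene's level, and both animals' values for the highest and lowest of each role, c-subunit genes, extreme ratios, undetected genes and those 2-fold apart between tables. Sums with copies, the backgrounds at a mean count of 1000, length and the Atp5c1 exon share were added after seeing the data.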

Additional observations from a re-analysis of the deposited data

How the results depend on the processing

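The count of 39 detected genes was also 39 in the second table and was 37 at 5 TPM. It was 39 too under nuclear coding TPM, a limit of 0.1 TPM and without either replicate. Those settings could not lower it, and the remaining identifier had no reads, so they are no check. The median of 287 TPM was 467 TPM in the second table and 761 TPM when TPM was rescaled to nuclear protein-coding genes, and ranged from 266 to 305 TPM when a replicate was left out. The median log2 ratio of 0.24 was 0.13 by library size alone and 0.44 by spike-in totals. The median of all genes was -0.11 and 0.20 under these scalings. A scaling factor shifts all genes nearly alike, so the distance to all genes, 0.24 in each, could not change and is no check. The count past 1.5-fold, 0 otherwise, was 3 by spike-ins (Uqcc1, Atp5g2 and Atp5k), where 17.9% of all genes were past it. Under every scaling run, 37 to 39 genes were higher in animal 2, against 32.6% of all genes by library size and 72.3% by spike-ins. Of the other values, chiefly levels per complex and shares of transcripts and c-subunit genes, 33 moved by more than the spread between animals or the counting interval and 33 did not. Leaving out a replicate moves a mean of 2 values by less than their SD, so those settings could hardly read as moved. The subunits have counts well above the filters, so the prior count and the filters could hardly move their median ratios either. The tally is therefore no measure of robustness. No median ratio changed sign. No paired analysis was possible because there is only 1 group. Each animal is 1 library, so SDs rest on 2 values, and values of genes with near-identical copies are limited by read assignment and not by depth.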

Other observations

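Of the 40 identifiers, 14 overlap a gene on the opposite strand and 5 a gene on the same strand, and 23 overlap none. Among the opposite-strand overlaps is Atp5j with Gabpa, which codes for the ETS-family subunit of GABP. The strand setting behind the counts was not stated, and the reads of such genes were not separated here.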
